A study of Homo sapiens with 6 samples.

Results

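The genes described here are 10 immediate early genes: FOS and FOSB, JUN, JUNB and JUND, EGR1, IER2 and IER5, and DUSP1 and DUSP2. They were chosen by name, and every probe set that the platform annotation gives to them was taken, which made 17 of the 22277 probe sets on the array. In the gene-level comparison, with 1 probe set for each gene and a floor on dim probe sets, all 10 were among the 7936 genes tested. The cells were NCI-H929, an established human multiple myeloma line, electroporated with small interfering RNA (siRNA), and total RNA was taken 24 h later. There were 3 groups of 2 arrays: a non-targeting control siRNA (scramble), siRNA against RRM1 (siRRM1) and siRNA against RRM2 (siRRM2). RRM1 and RRM2 are the subunits of ribonucleotide reductase, which supplies deoxyribonucleotides for DNA synthesis, and the series asked how loss of either subunit changes expression. All 3 groups went through electroporation, and no group without it was analysed here. The labels name neither the siRNA sequences nor separate cultures, so the p-values measure only the spread between these arrays, which may be technical.

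Immediate early genes are transcribed within minutes of a stimulus, from factors already present in the cell, and their short-lived transcripts usually fall back soon afterwards. Serum response factor with its ternary complex partners, and CREB, are the best-known factors that switch them on, downstream of the mitogen-activated protein kinases (MAPK). FOS and JUN proteins pair to form AP-1, which binds the TPA response element, while EGR1 is a zinc finger transcription factor and DUSP1 and DUSP2 are phosphatases that switch MAPK off again. Many of them also respond to cell stress.

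Values are signals as the authors deposited them, taken as log2 from their range. A difference of 1 is then a doubling of the signal. Per-array medians lay between 6.11 and 6.16. Each siRNA lowered its target: RRM1 kept 22.4% and 11.7% of the scramble mean on the siRRM1 arrays, and RRM2 kept 21.2% and 39.6% on the siRRM2 arrays. All 11 plasma cell and myeloma markers, SDC1 and TNFRSF17 among them, were above the floor of 5.44. Above the floor were 2 of 5 T cell, 3 of 6 myeloid, 2 of 6 stromal and 2 of 5 epithelial markers, while CD14, LYZ, CD2 and EPCAM were under it. The summed myeloid level was 7.60 to 7.68 on the scramble arrays, 9.35 to 10.55 in siRRM1 and 8.36 to 9.44 in siRRM2, where S100A8, S100A9 and CSF1R were the markers above the floor. The T cell sum was 10.26 to 10.31, 11.20 to 11.37 and 10.77 to 10.98 in the same order, and the stromal sum 8.44 to 8.46, 9.43 to 9.64 and 9.01 to 9.08. These 3 sums were higher in both knockdowns without overlap, but a sum on the linear scale follows its brightest markers. TRBC1 ran from 10.08 to 11.29 over the arrays and CD3E from 5.78 to 6.23, with CD3D, CD3G and CD2 under the floor. Of the stromal markers only ACTA2 (6.86 to 9.05) and COL1A1 (7.11 to 7.59) were above the floor. The epithelial sum was 8.77 to 8.81 in scramble and at most 8.77 in each knockdown, and the plasma cell sum was 15.25 to 15.40 in scramble, 15.03 to 15.09 in siRRM1 and 15.22 to 15.33 in siRRM2. The median 3′ minus 5′ difference of 11 control transcript sets was 1.23 to 1.47, with the highest value on siRRM1 replicate 2. Most of these sets are bacterial transcripts, so the median does not measure the integrity of the cells' own RNA. The human sets gave -0.11 to -0.01 for GAPDH, 0.03 to 0.34 for actin and 2.78 to 3.57 for ISGF3A.

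The promoters of 4 of the genes are shown, with the letters of known regulatory elements marked where they occur. EGR1, FOS and DUSP1 are shown because they were among the genes that differed most between replicate numbers, and IER5 because it differed between siRNAs and not between numbers; this choice was made after their values were seen. The sequences are from RefSeq on GRCh38.p14 and run from 250 bases before the transcription start to 50 bases from it on. EGR1 lies at chr5:138465229-138465528 and FOS at chr14:75278578-75278877, both on the plus strand. DUSP1 lies at chr5:172771146-172771445 on the minus strand and IER5 at chr1:181088450-181088749 on the plus strand. Capitals mark every match, on either strand, to the CArG box of serum response factor, to TGACG (the core of the CREB element), to the TPA response element TGANTCA of AP-1 and to GAANNTTC, a core of the heat shock element.
EGR1: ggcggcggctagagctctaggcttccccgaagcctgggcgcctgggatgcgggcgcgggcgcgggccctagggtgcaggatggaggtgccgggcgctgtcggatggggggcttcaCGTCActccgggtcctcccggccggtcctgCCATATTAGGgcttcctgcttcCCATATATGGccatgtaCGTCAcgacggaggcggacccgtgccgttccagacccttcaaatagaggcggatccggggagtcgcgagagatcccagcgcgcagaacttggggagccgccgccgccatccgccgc
FOS: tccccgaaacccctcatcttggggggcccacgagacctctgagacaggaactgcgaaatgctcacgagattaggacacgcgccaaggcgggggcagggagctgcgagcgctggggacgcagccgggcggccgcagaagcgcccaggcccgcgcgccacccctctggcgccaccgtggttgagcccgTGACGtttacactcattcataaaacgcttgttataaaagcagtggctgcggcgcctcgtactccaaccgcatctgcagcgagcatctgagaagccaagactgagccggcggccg
DUSP1: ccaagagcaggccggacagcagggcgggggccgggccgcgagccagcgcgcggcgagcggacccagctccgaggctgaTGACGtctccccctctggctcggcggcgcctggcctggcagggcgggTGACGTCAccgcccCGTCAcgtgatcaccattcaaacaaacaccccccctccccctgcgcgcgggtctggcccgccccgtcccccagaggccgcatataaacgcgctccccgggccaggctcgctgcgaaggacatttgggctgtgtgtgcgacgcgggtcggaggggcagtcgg
IER5: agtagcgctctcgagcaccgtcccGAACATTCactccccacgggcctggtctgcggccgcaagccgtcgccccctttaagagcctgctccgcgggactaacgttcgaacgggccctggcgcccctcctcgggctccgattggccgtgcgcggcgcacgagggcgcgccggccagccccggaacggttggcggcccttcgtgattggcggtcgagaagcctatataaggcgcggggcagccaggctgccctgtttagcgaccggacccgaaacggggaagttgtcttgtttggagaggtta

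All 10 genes matched a promoter in the table. A CArG box was in the window of EGR1 alone, at 105 and at 83 bases upstream of the start, and in 1.29% of the 35116 promoters of the same length. TGACG was in the windows of 8 of the 10 genes, all but IER5 and DUSP2, against 24.6% of all promoters. The palindrome TGACGTCA, which contains it, was in JUND and DUSP1 and in 1.85% of all. GAANNTTC was in JUN and IER5, at 226 bases upstream in IER5, against 6.77%. TGANTCA was in 0 of the 10 and in 7.71% of all promoters. A match is a stretch of letters and not a measured site, and no match says only that these letters are not in this window.

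FOS, the AP-1 partner that cannot pair with itself, had the widest spread of the 10 genes. Its only probe set, 209189_at, gave a log2 signal of 4.28 and 6.77 on scramble replicates 1 and 2, 5.47 and 6.40 on the siRRM1 arrays, and 5.06 and 6.36 on the siRRM2 arrays. Replicate 2 was the higher array in each group, and the 3 replicate 2 arrays lay close together while the replicate 1 arrays did not. FOSB, its close relative, gave 5.93 and 6.52 in scramble, 6.01 and 6.27 in siRRM1, and 6.00 and 6.32 in siRRM2. The same arrays were high, within a range of 0.59, and the groups overlapped.

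JUN, the AP-1 subunit that pairs with FOS or with itself, has 4 probe sets. The brightest, 201464_x_at, read 6.88 and 7.56 in scramble, 7.56 and 8.56 in siRRM1, and 7.15 and 8.16 in siRRM2. Each group again had its higher value on replicate 2, and within each number the order was scramble, siRRM2, siRRM1. Of the others, 201465_s_at ran from 5.73 to 6.86 over the arrays, 213281_at from 3.80 to 5.08 and 201466_s_at from 3.94 to 5.19, the last 2 under the floor on average. JUNB, which competes with JUN for partners, gave 7.45 and 7.28 in scramble, 7.85 and 8.02 in siRRM1, and 7.80 and 7.80 in siRRM2. Both scramble arrays were below all 4 knockdown arrays, and replicate number made no common difference. JUND, the Jun protein that is made in resting cells too, gave 9.73 and 10.13 in scramble, 10.30 and 10.87 in siRRM1, and 10.05 and 10.31 in siRRM2 on 203752_s_at. Its siRRM1 arrays were above both scramble arrays. Its dim probe sets 203751_x_at and 214326_x_at ran from 4.59 to 5.08 and from 4.12 to 4.66.

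EGR1, the zinc finger factor, was read by 2 probe sets. On 201694_s_at it gave 7.13 and 8.57 in scramble, 8.65 and 9.71 in siRRM1, and 7.30 and 8.71 in siRRM2. Scramble and siRRM2 were nearly level at each number, and siRRM1 stood above both. On 201693_s_at the values were 5.54 and 6.52, 6.35 and 7.37, and 5.51 and 6.39, in the same order of arrays and with the same shape. IER2, a small nuclear protein, was at the 97.0 percentile of probe sets by mean, and gave 11.28 and 11.75 in scramble, 11.86 and 11.96 in siRRM1, and 11.63 and 11.79 in siRRM2. IER5, a regulator of heat shock factor activity, gave 8.45 and 8.41 in scramble, 9.40 and 9.35 in siRRM1, and 8.87 and 8.89 in siRRM2. The 3 groups of IER5 did not overlap anywhere, with siRRM2 between scramble and siRRM1, and the arrays of a group lay within 0.06 of each other.

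DUSP1, the inducible MAPK phosphatase, gave 8.32 and 9.15 in scramble, 8.68 and 9.0 in siRRM1, and 8.38 and 9.16 in siRRM2 on 201041_s_at. The replicate 2 arrays were all above the replicate 1 arrays, whatever the siRNA. Its other probe set, 201044_x_at, ran from 5.56 to 5.86, with the lowest value on scramble replicate 1 and the highest on scramble replicate 2. DUSP2, a phosphatase of activated lymphocytes, gave 7.64 and 7.63 in scramble, 7.27 and 7.17 in siRRM1, and 7.24 and 7.50 in siRRM2. Its 2 scramble arrays were above all knockdown arrays.

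**Figure D1:**
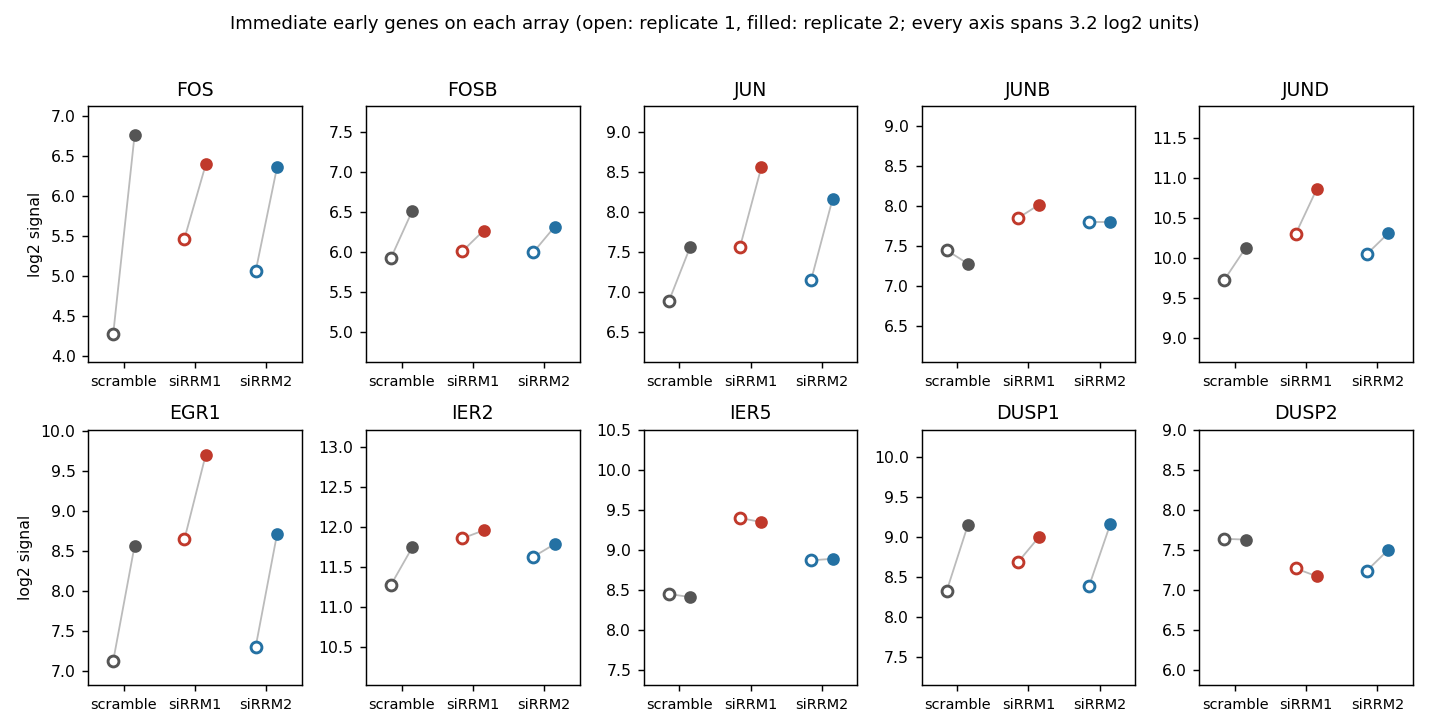
Log2 signal of the probe set that stands for each of the 10 genes on each of the 6 arrays, by siRNA group (x axis), with replicate 1 as an open and replicate 2 as a filled point, joined within a group; the axes start at different levels but all span 3.2 log2 units. FOS, EGR1, JUN and DUSP1 run upward from replicate 1 to replicate 2 in every group, while IER5 keeps its arrays together and separates the groups.

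Most of these genes differed between replicate numbers in the same direction within every group. FOS, EGR1, JUN, DUSP1, JUND, FOSB and IER2, 7 of the 10, were higher on replicate 2 than on replicate 1 in all 3 groups, which held for 18.9% of the 7936 genes. By at least 0.25 in every group it held for 6 of the genes, against 1.13% of all, and by at least 0.5 for FOS, EGR1 and JUN, against 0.151%. None of the 10 was lower on replicate 2 in all 3 groups, which held for 17.0% of all genes. JUNB, IER5 and DUSP2 had no common direction. This comparison was made after the values were seen.

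The difference between replicate 2 and replicate 1 was 2.49 for FOS in scramble, 0.93 in siRRM1 and 1.31 in siRRM2. For EGR1 it was 1.43, 1.06 and 1.41, nearly equal in the 3 groups. For JUN it was 0.68, 1.00 and 1.02. Ranked by the mean of the 3 differences among the 7936 genes, FOS was 1st, EGR1 was 2nd and JUN was 8th. The mean signal of FOS, 5.72, was close to the floor of 5.44. DUSP1 was 21st (0.83, 0.32 and 0.77), JUND 66th (0.40, 0.57 and 0.26), FOSB 80th (0.59, 0.26 and 0.32) and IER2 309th (0.47, 0.10 and 0.16). IER5 had differences of -0.04, -0.06 and 0.02.

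In a limma fit with siRNA group and replicate number as terms, the number coefficient passed an adjusted p of 0.05 (Benjamini-Hochberg over the 7936 genes) for 3 of the 10 genes, where 0.466% of all genes passed. EGR1 was 2.46-fold higher on replicate 2 (log2 1.30, SE 0.09, limma adjusted p = 0.00145), JUN 1.86-fold (log2 0.90, SE 0.09, limma adjusted p = 0.00572) and FOS 2.98-fold (log2 1.58, SE 0.24, limma adjusted p = 0.0396). DUSP1 lay just outside, with log2 0.64 (SE 0.11, limma adjusted p = 0.0509), followed by JUND with 0.41 (limma adjusted p = 0.0861), FOSB with 0.39 (limma adjusted p = 0.0958) and IER2 with 0.24 (limma adjusted p = 0.282). Fitted over all probe sets, of which 0.113% passed, both EGR1 probe sets passed (limma adjusted p = 0.00343 and 0.00449) and 1 of the 4 JUN probe sets did (201464_x_at, limma adjusted p = 0.0116). FOS did not pass in that fit (limma adjusted p = 0.0653). FOS was near or under the floor of 5.44 on replicate 1 (4.28, 5.47 and 5.06 in scramble, siRRM1 and siRRM2). Its mean of 5.72 passed the floor through replicate 2 (6.77, 6.4 and 6.36), so the size of its number difference is less certain. Leaving out either siRRM1 array ended the calls of FOS (limma adjusted p = 0.0560) and JUN (limma adjusted p = 0.0549), while EGR1 passed without any single array. DUSP1 passed without any 1 of the 4 knockdown arrays and not without a scramble array (limma adjusted p = 0.167).

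Other measures moved with the number in part. The summed myeloid markers were higher on replicate 2 by 1.20 in siRRM1 and by 1.08 in siRRM2, and by 0.08 in scramble. Of those above the floor, S100A8 changed by -0.01, 1.58 and 1.7 in scramble, siRRM1 and siRRM2, and S100A9 by 0.08, 1.1 and 1.17. CSF1R changed by 0.28, 0.95 and 0.42 in the same order. CD14, ITGAM and LYZ were under the floor. The plasma cell markers changed by -0.15, -0.06 and -0.11 in scramble, siRRM1 and siRRM2, the T cell markers by -0.05, -0.17 and -0.21, the stromal markers by -0.02, 0.21 and 0.07 and the epithelial markers by 0.04, -0.07 and 0.06. The control transcripts' 3′ minus 5′ medians on replicates 1 and 2 were 1.37 and 1.38 in scramble, 1.23 and 1.47 in siRRM1, and 1.29 and 1.34 in siRRM2. The part of handling, RNA quality or other cells in the number difference was not tested, and in bulk RNA a change in the share of cells that express a gene and a change in the RNA per cell cannot be told apart.

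**Figure D2:**
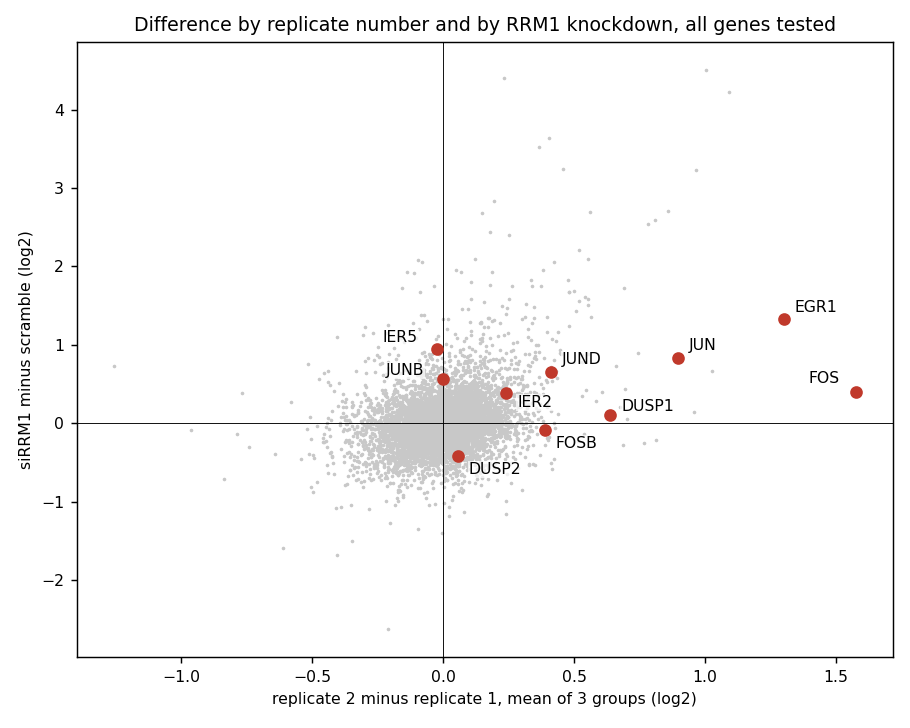
Each gray point is 1 of the 7936 genes tested and the red points are the 10 immediate early genes; the x axis is the log2 difference between replicates 2 and 1, averaged over the 3 groups, and the y axis the log2 difference between siRRM1 and scramble. FOS lies farthest to the right at 1.58, followed by EGR1 at 1.30, while IER5 and JUNB lie near 0 on the x axis and at 0.95 and 0.57 on the y axis.

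With siRNA against RRM1, IER5 and JUNB rose and DUSP2 fell. IER5 was 1.93-fold higher than in scramble (log2 0.95, SE 0.08, limma adjusted p = 0.00106) and JUNB 1.48-fold higher (log2 0.57, SE 0.10, limma adjusted p = 0.0123). DUSP2 fell by 0.42 on the log2 scale (SE 0.11, limma adjusted p = 0.0417). These were 3 of the 10 genes, where 15.5% of all genes passed. Their median difference was 0.49 and 8 of the 10 were positive, against a median of -0.01 over all genes tested.

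The other 7 did not pass in that fit, although the unadjusted 95% intervals of JUND (0.18 to 1.14) and IER2 (0.03 to 0.75) lay above 0. EGR1 had the largest, 2.52-fold (log2 1.33, SE 0.59, limma adjusted p = 0.163), then JUN with log2 0.84 (SE 0.41, limma adjusted p = 0.204) and JUND with 0.66 (SE 0.21, limma adjusted p = 0.0699). IER2 had 0.39 (limma adjusted p = 0.126), FOS 0.40 (limma adjusted p = 0.761), DUSP1 0.11 (limma adjusted p = 0.847) and FOSB -0.09 (limma adjusted p = 0.804). The siRRM1 and scramble arrays did not overlap for 5 genes higher in siRRM1 (EGR1, JUNB, JUND, IER2 and IER5) and for DUSP2 (lower). Of all genes, 59.3% did not overlap. For EGR1 the gap on 201694_s_at was narrow, with 8.65 on siRRM1 replicate 1 and 8.57 on scramble replicate 2. On 201693_s_at the same 2 arrays overlapped (6.35 and 6.52).

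The labels do not say what the replicate numbers share, but from these data they were taken to pair the arrays across groups. The comparison was therefore also made within numbers. EGR1 exceeded the scramble array of its own number by 1.52 on replicate 1 and by 1.14 on replicate 2, JUN by 0.68 and 1.00, and JUND by 0.58 and 0.74. IER5 was higher by 0.96 and 0.94 and JUNB by 0.40 and 0.73. FOS went in opposite directions, 1.19 on replicate 1 and -0.38 on replicate 2, as did DUSP1 (0.36 and -0.15) and FOSB (0.07 and -0.25).

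With the replicate number as a block, 7 of the 10 genes passed, 6 higher and 1 lower in siRRM1, where 24.0% of all genes passed. EGR1 rose by 1.33 (SE 0.11, limma adjusted p = 1.57e-04), JUN by 0.84 (SE 0.11, limma adjusted p = 0.00128) and JUND by 0.66 (SE 0.10, limma adjusted p = 0.00294) on the log2 scale. IER2 rose by 0.39 (SE 0.11, limma adjusted p = 0.0348), and IER5, JUNB and DUSP2 remained past the threshold (limma adjusted p = 2.27e-04, 0.00593 and 0.0240). FOS (limma adjusted p = 0.357), FOSB (0.579) and DUSP1 (0.587) did not pass.

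The probe sets of a gene can be read against each other for direction. Over all probe sets, 6.52% passed without the block, IER5 and JUNB among them, and DUSP2 did not (limma adjusted p = 0.0708). With the block, which passed 11.2% of all probe sets, both EGR1 probe sets were higher in siRRM1 (log2 1.33 and 0.83) and so were all 4 JUN probe sets (log2 0.72 to 0.84, limma adjusted p = 0.00165 to 0.0179). Of the JUND probe sets only 203752_s_at passed, and the 2 dim ones had log2 differences of 0.17 and 0.18. IER2 did not pass in that fit (limma adjusted p = 0.0665).

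The IER5 call in siRRM1 held without any single array (limma adjusted p = 0.00274 to 0.0103), and with the block so did EGR1, JUN, JUND and IER5. The other calls with the block did not: IER2 was lost without scramble replicate 1 (log2 0.22, limma adjusted p = 0.362), siRRM1 replicate 1 (log2 0.28, 0.171) or siRRM1 replicate 2 (0.0632). JUNB with the block was lost without scramble replicate 2 (limma adjusted p = 0.0739) or siRRM1 replicate 2 (0.0571), and DUSP2 without scramble replicate 1 (0.164), scramble replicate 2 (0.0884) or siRRM1 replicate 2 (0.178). Without the block, JUNB was lost without scramble replicate 2 (limma adjusted p = 0.0537) or siRRM1 replicate 2 (0.0754), and DUSP2 without any 1 array of the groups compared (0.0660 to 0.176). The summed myeloid, T cell and stromal markers were also higher in siRRM1, and the plasma cell markers lower, without overlap (values above), and their part was not tested. The control transcript medians of siRRM1 lay on both sides of those of scramble. FOS with the block passed only when scramble replicate 2 was left out (log2 1.09, limma adjusted p = 0.00169).

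With siRNA against RRM2, IER5 was the only one of the 10 genes to pass. It rose 1.37-fold over scramble (log2 0.46, SE 0.08, limma adjusted p = 0.0395), where 2.52% of all genes passed. The scramble arrays are the same as in the siRRM1 comparison, so the 2 comparisons are not independent. JUNB had a log2 difference of 0.43 (SE 0.10, limma adjusted p = 0.0726), JUN 0.43 (SE 0.41, limma adjusted p = 0.610), JUND 0.25 (limma adjusted p = 0.547) and DUSP2 -0.27 (SE 0.11, limma adjusted p = 0.225). EGR1, which had 1.33 in siRRM1, had 0.16 here (SE 0.59, limma adjusted p = 0.912), and within numbers 0.17 and 0.14. The values of FOS (0.18), IER2 (0.19), DUSP1 (0.04) and FOSB (-0.07) had limma adjusted p between 0.532 and 0.960. IER5 and JUNB were higher and DUSP2 lower with no overlap of the arrays, where 54.7% of all genes did not overlap.

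With the replicate block, 3 of the 10 passed and 7.84% of all genes did: IER5 (limma adjusted p = 0.0184), JUNB (log2 0.43, limma adjusted p = 0.0406) and JUN (log2 0.43, limma adjusted p = 0.0474). Without the block, the IER5 call was lost without any 1 of the 4 scramble and siRRM2 arrays (limma adjusted p = 0.127 to 0.200), with each array centred on its median (0.0552) and without the floor on dim probe sets (0.0529). With the block, all 3 calls were lost without any 1 of those 4 arrays, and FOS passed without scramble replicate 2 (limma adjusted p = 0.0162). The log2 difference of IER5 within numbers was 0.43 and 0.49.

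EGR1 and IER5 were higher with siRRM1 than with siRRM2 when the replicate number was a block. EGR1 was 2.25-fold higher (log2 1.17, SE 0.11, limma adjusted p = 0.00237) and IER5 1.41-fold (log2 0.49, SE 0.09, limma adjusted p = 0.0326), where 1.93% of all genes passed. Within numbers EGR1 differed by 1.35 and 1.00 and IER5 by 0.53 and 0.45. Over all probe sets, of which 0.405% passed, both EGR1 probe sets did and IER5 did not (limma adjusted p = 0.0868). JUND (log2 0.41, limma adjusted p = 0.0990) and JUN (log2 0.41, limma adjusted p = 0.126) did not pass with the block, with 95% intervals of 0.18 to 0.64 and 0.16 to 0.65.

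Without the block 0 of the 10 genes passed between the knockdowns by limma, where 0.164% of all genes did. Of the 10, only IER5 had an unadjusted limma p under 0.05, as had 797 of all 7936 genes. EGR1 then had an SE of 0.59 (limma adjusted p = 0.561) and IER5 of 0.08 (limma adjusted p = 0.0862). The arrays did not overlap for 3 of the genes, JUNB, IER2 and IER5, against 40.8% of all genes. The EGR1 call with the block held without any single array, while that of IER5 was lost without any 1 of the 4 knockdown arrays (limma adjusted p = 0.0628 to 0.189).

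**Figure D3:**
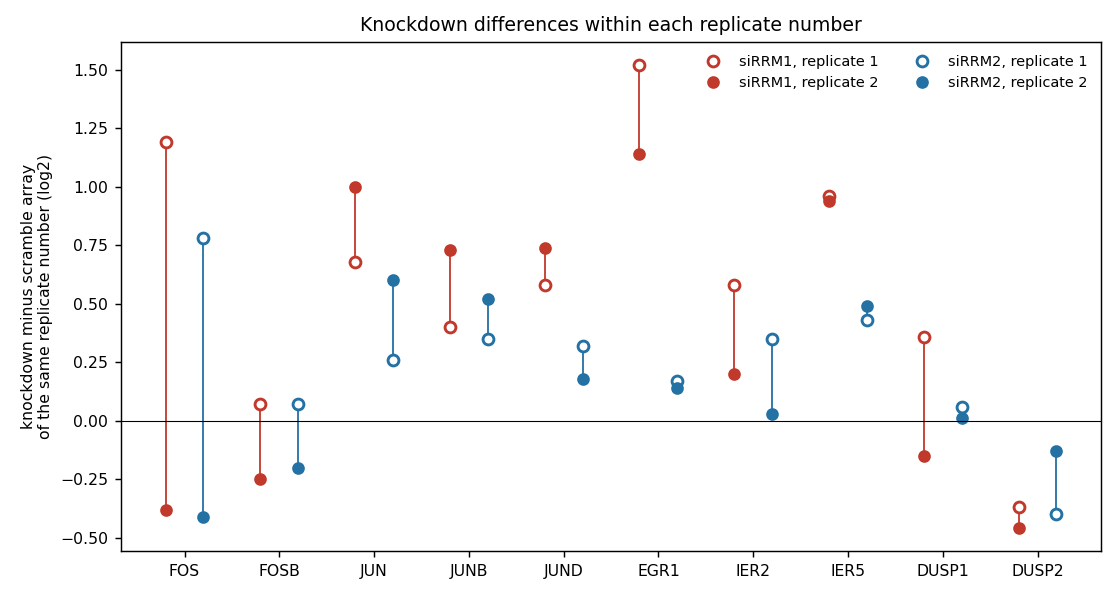
Log2 difference between a knockdown array and the scramble array of the same replicate number for each of the 10 genes, with siRRM1 in red and siRRM2 in blue, replicate 1 open and replicate 2 filled. EGR1 lies at 1.52 and 1.14 in siRRM1 and at 0.17 and 0.14 in siRRM2, and FOS crosses 0 in both knockdowns.

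The wider circuit was described with 5 lists of related genes: other AP-1 family members, other immediate early genes, MAPK phosphatases and signal inhibitors, upstream kinases and factors, and textbook AP-1 targets. Of 98 genes listed, 87 were on the array and 64 were tested. In siRRM1, 20 of the 64 rose and 1 fell (15.5% of all genes passed), and in siRRM2 3 rose and 0 fell (2.52% of all). The median difference over the 64 was 0.14 in siRRM1 and 0.11 in siRRM2.

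Of the other AP-1 members, 4 of 5 rose in siRRM1, where 8.22% of all genes rose past the threshold. ATF3, a stress-induced partner of the Jun proteins, gave 6.34 and 6.94 in scramble, 8.50 and 8.98 in siRRM1, and 7.28 and 7.85 in siRRM2. It rose by 2.10 on the log2 scale in siRRM1 (SE 0.26, limma adjusted p = 0.00340). The lymphocyte factor BATF rose by 0.69 (limma adjusted p = 0.00757), FOSL1 by 0.64 (0.0154) and BATF3 by 0.41 (0.0227), and ATF2 had -0.17. FOSL1 was near or under the floor of 5.44 in scramble (5.44 and 5.12) and passed it through the knockdown arrays (5.53 to 6.00). None of the 5 passed in siRRM2, where 3 of them had an unadjusted limma p under 0.05, as had 1616 of all 7936 genes. ATF3 had 0.93 and BATF3 0.31 there (limma adjusted p = 0.109 for both). With the block ATF3 rose in siRRM2 as well (limma adjusted p = 0.00101) and differed between the knockdowns by 1.17 (limma adjusted p = 0.00142).

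Of 19 other immediate early genes tested, 9 rose in siRRM1 and 0 fell, where 8.22% of all genes rose and 7.33% fell. PLK2, a polo-like kinase, gave 6.00 and 5.67 in scramble, 7.88 and 7.91 in siRRM1, and 6.61 and 6.68 in siRRM2. It rose by 2.06 in siRRM1 (limma adjusted p = 2.86e-04), by 0.81 in siRRM2 (0.0220) and by 1.24 in siRRM1 over siRRM2 (0.0200). Without the block, PLK2 was the only gene of the 64 to pass between the knockdowns. That call was lost when any single knockdown array was left out. In siRRM2, the PLK2 call was lost without scramble replicate 2 or without either siRRM2 array. IER3, which modulates survival signalling, rose by 1.67 (limma adjusted p = 0.00522) and HBEGF, a growth factor of the EGF family, by 1.55 (0.00809) in siRRM1. NR4A1, the orphan nuclear receptor, rose by 0.45 (limma adjusted p = 0.0336), while KLF6 had -0.22 and MAFF 0.16 and did not pass. SGK1, a serum-induced kinase, resembled EGR1 in its number difference (0.86, 1.09 and 1.14; log2 1.03 in the fit, limma adjusted p = 0.00188).

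Among 10 phosphatases and signal inhibitors 1 passed in either direction in siRRM1, a share no higher than the 15.5% of all genes. It was DUSP14, which rose (log2 0.79, limma adjusted p = 0.00237). In siRRM2 none passed, and DUSP14 had 0.22 (limma adjusted p = 0.213). There 1 of the 10 had an unadjusted limma p under 0.05, as had 1616 of all 7936 genes. Of 20 upstream kinases and factors, 3 rose and 1 fell in siRRM1: RPS6KA1, a kinase downstream of ERK, by 0.92 (limma adjusted p = 0.00340), RPS6KA5 by 0.48 (0.0248) and MAP2K6, which activates p38, by 0.88 (0.0335), while MAP2K4 fell by 0.44 (0.0485). These 4 of 20 are close to the 15.5% of all genes. None of the 20 passed in siRRM2, where RPS6KA1 had 0.44 (limma adjusted p = 0.0901). There 4 of the 20 had an unadjusted limma p under 0.05, close to the share of all genes (1616 of 7936). SRF, which binds the CArG box, had -0.06 in siRRM1 and 0.01 in siRRM2.

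Of 10 textbook AP-1 targets, 3 rose in siRRM1 and 0 fell, where 8.22% of all genes rose and 7.33% fell. The nuclear lamin LMNA rose by 0.69 (limma adjusted p = 0.00340), the urokinase receptor PLAUR by 1.16 (0.0133) and the metalloproteinase inhibitor TIMP1 by 0.45 (0.0193). LMNA (limma adjusted p = 0.0435) and TIMP1 (log2 0.50, limma adjusted p = 0.0416) also rose in siRRM2. By replicate number the targets went both ways. HMOX1, heme oxygenase 1, was lower on replicate 2, with 12.00 and 10.60 in scramble, 12.67 and 11.38 in siRRM1, and 12.46 and 11.37 in siRRM2 (log2 -1.26, limma adjusted p = 0.00145). ANXA1 (0.67) and PLAUR (0.44) were higher on replicate 2. ANXA1 was under the floor of 5.44 on replicate 1 (5.12, 5.38 and 5.27 in scramble, siRRM1 and siRRM2). It was above the floor on replicate 2 (5.88, 6.03 and 5.88). Over the 64 genes the number coefficient passed for 9, 8 higher and 1 lower on replicate 2, where 0.466% of all genes passed.

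Leaving out single arrays moved these counts. Without siRRM1 replicate 2, 7 of the 64 rose in siRRM1, while the genes called among all 7936 went from 1234 to 312. Without scramble replicate 1, 10 of the 64 rose and 497 of all genes were called. In siRRM2, leaving out 1 array in the fit without the block left 0 to 2 of the 64 called, with 21 to 206 of all genes, and none of the AP-1 targets, LMNA and TIMP1 included, passed in any of those 6 fits. With the replicate block 25 rose and 3 fell in siRRM1, where 24.0% of all genes passed in either direction. In siRRM2 14 rose and 0 fell (7.84% of all passed). Between the knockdowns 8 were higher and 0 lower in siRRM1 (1.93% of all passed). The lists were chosen with earlier results of these data known.

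**Figure D4:**
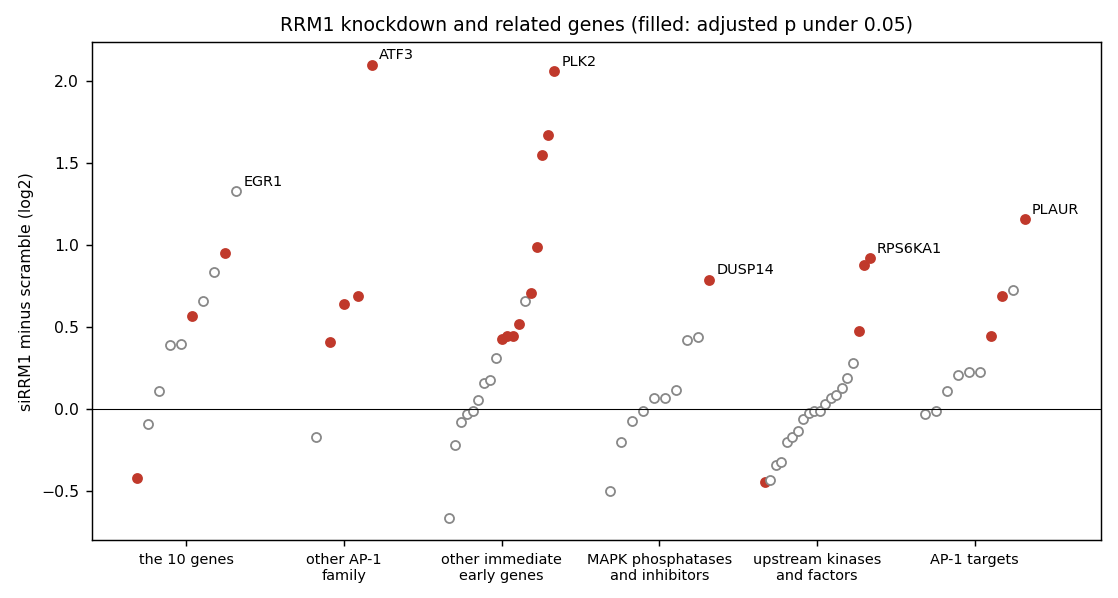
Log2 difference between siRRM1 and scramble for the 10 immediate early genes and for the tested members of the 5 lists, each point 1 gene in order of its value, filled red where the limma adjusted p was under 0.05. The highest gene of each group is named, with ATF3 at 2.10 and PLK2 at 2.06 above all of the 10 genes.

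The genes whose 6 array values ran most like those of a called gene were found by Pearson correlation over the 6 arrays among the genes tested, as a description only. For IER5 they were OSBPL3 (0.999), TEDC2 (0.998) and TRIAP1 (0.995), and for JUNB they were ARAP1 (0.997), SHFL (0.994) and CAMLG (0.993). For DUSP2 they were ARHGAP11A (0.994), POLR3B (0.993) and USP16 (0.993). Of those passing with the block, EGR1 was followed by TSC22D3 (0.994), NUSAP1 (0.993) and H3-3A (0.991), JUN by ESPL1 (0.996), DND1 (0.992) and KCNG1 (0.992), JUND by CITED2 (0.994), ACD (0.994) and CABIN1 (0.993), and IER2 by TSC22D4 (0.994), NOS2 (0.991) and DDX27 (0.991). Among the 10 genes themselves, FOS ran with DUSP1 (0.96) and FOSB (0.93), JUN with EGR1 (0.94) and JUND (0.93), and IER5 with JUNB (0.91) and against DUSP2 (-0.88). TSC22D3 shared the 2 steps of EGR1, with 7.14 and 8.07 in scramble, 8.21 and 8.80 in siRRM1, and 7.36 and 8.07 in siRRM2.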

How the data were processed

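RNA from 6 electroporated NCI-H929 samples was copied into biotin-labelled cRNA and hybridised to 3′ expression arrays, per the labels' protocols. The authors deposited 1 signal per probe set and array, taken as log2 from the range of values. The log base and the summary and normalization steps are not given in the sources used here, and no further scaling was applied. Gene symbols came from the platform annotation. A gene was represented by its brightest probe set with a single symbol (11963 genes), and was tested if its mean signal was at or above 5.44, the 40th percentile over the array.

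The moderated linear models of limma 3.58.1 (R 4.3.3, two-sided) took all 6 arrays without a block, with 3 residual and 4.61 prior degrees of freedom, and were tested on simulated data. Numbers of arrays, 2 a group, limit the precision. Replicate 2 minus replicate 1 correlated over the 7936 genes at r = 0.38 (scramble and siRRM1), 0.36 (scramble and siRRM2) and 0.21 (siRRM1 and siRRM2), so the numbers, which the labels give without saying what they share, were taken to pair the arrays; without the 10 genes the values were 0.37, 0.35 and 0.20. Genes named beyond the 10 are, per list and comparison, up to 3 called genes by adjusted p (2 uncalled ones where none was called), plus the 3 genes most like each called gene; BATF3, NR4A1, KLF6, MAFF, SGK1, MAP2K4, SRF, ATF2, ANXA1 and HMOX1 were named after their values were seen. The 10 genes, the lists and the tests were chosen with earlier results of these data known. The number comparison and the block without single arrays were chosen after seeing these values. Other alternatives were centring, quantile normalization, other floors, averaged probe sets, other variance models, the 4 arrays compared alone and leaving out each array.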

Additional observations from a re-analysis of the deposited data

Results flagged for a closer look

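EGR1 and IER5 differed between the knockdowns by a test of the difference itself, siRRM1 against siRRM2 with the replicate block. For EGR1 the log2 difference was 1.17 (limma adjusted p = 0.00237), higher in siRRM1 at both numbers. For IER5 it was 0.49 (limma adjusted p = 0.0326), also higher at both numbers. The EGR1 call held without any single array and for both of its probe sets, whereas the IER5 call was lost over all probe sets (limma adjusted p = 0.0868) and without any 1 of the 4 knockdown arrays (0.0628 to 0.189). Without the block neither passed.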

How the results depend on the processing

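Replicate number as a block, which takes the numbers to pair the arrays, raised the count of the 10 genes called in each comparison. It went from 3 to 7 in siRRM1 against scramble, from 1 to 3 in siRRM2 against scramble and from 0 to 2 between the knockdowns. The related genes called went from 21 to 28, from 3 to 14 and from 1 to 8. Calls over all 7936 genes rose too, from 1234 to 1904, from 200 to 622 and from 13 to 153. In siRRM2, centring each array or dropping the floor left 0 of the 10 and 1 related gene. Between the knockdowns a floor at the 60th percentile left 0 related genes and a variance trend gave 2. Leaving out 1 array gave 1 to 3, 0 to 1 and 0 of the 10 genes in those comparisons (with the block 4 to 7, being 5 without scramble replicate 1 and 6 without scramble replicate 2 or siRRM1 replicate 1, 0 to 3 and 1 to 2) and 7 to 19, 0 to 2 and 0 to 1 related genes. Centring turned DUSP1 in siRRM2 to -0.0011.

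Leaving out 1 array also turned the sign of log2 differences that had not passed. Against scramble in siRRM1, FOS ran from -0.84 to 1.65, FOSB from -0.38 to 0.20 and DUSP1 from -0.31 to 0.52. In siRRM2, FOS ran from -1.07 to 1.43, FOSB from -0.36 to 0.22, JUN from -0.08 to 0.94, EGR1 from -0.56 to 0.88, IER2 from -0.04 to 0.43 and DUSP1 from -0.38 to 0.45. Between the knockdowns FOS ran from -0.43 to 0.88, FOSB from -0.18 to 0.14, JUN from -0.10 to 0.91 and DUSP1 from -0.32 to 0.46. The number differences of JUNB (-0.08 to 0.08) and DUSP2 (-0.05 to 0.13) did so too. Leaving out an array unbalances the replicate numbers between the groups compared. Of 444 alternative values of the 10 genes' knockdown differences, 395 kept their direction and their side of the threshold, 13 lost a call, 11 gained one and 25 changed sign.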
